A study of Mus musculus with 101 samples.

Results

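The 10 genes described here encode chemokines, the small secreted or membrane-bound proteins that guide leukocytes. They are Cxcl1, Cxcl2, Cxcl5, Cxcl9, Cxcl10, Cxcl12, Cxcl13, Cxcl14 and Cxcl16 of the CXC family, and Cx3cl1 of the CX3C family. They were chosen by name from the 21330 genes with reads in the deposited files. Mouse brain was profiled after lipopolysaccharide (LPS), an inflammatory component of the outer membrane of Gram-negative bacteria, given intraperitoneally at 5 mg/kg. Control mice received phosphate-buffered saline (PBS). Groups are LPS or PBS at 1, 2 or 14 days, in the brain areas labelled PFC and VCX. RNA came from ribosomes of astrocytes, the star-shaped glia of the brain, pulled down through a hemagglutinin tag (immunoprecipitate, IP), or from the cleared lysate (input). Each of these 24 groups holds 4 libraries, except LPS PFC IP at day 2 and LPS VCX input at day 2, with 3 each. Whole PFC tissue at day 1 adds 3 LPS and 4 PBS libraries, all female. All mice carry the strain label C57, and 55 libraries are female and 46 male. LPS and PBS mice of the IP and input groups alike carry the tag. The labels used here call the tag astrocyte-specific, without the mouse line, the promoter that drives the tag or the age of the mice. Nor do they say which libraries share an animal, so p-values measure the spread between libraries, which may be partly technical.

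Chemokines act through G protein-coupled receptors on the cells they attract. CXCL9 and CXCL10 are interferon-induced ligands of CXCR3 on T and NK cells. CXCL1, CXCL2 and CXCL5 attract neutrophils through CXCR2, and their genes are classical targets of NF-kB. CXCL16 and CX3CL1 are made as transmembrane proteins and can be shed by proteases; CX3CL1 is made by neurons and binds CX3CR1 on microglia. CXCL12, CXCL13 and CXCL14 are often called homeostatic, being made in some tissues without inflammation.

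Values are FPKM, reads scaled by gene length and library depth, as the authors deposited them. Library depth, worked back from these values, was 4210000 to 72940000 reads over all libraries. The lowest depths were in input at day 14, at 4210000 to 35900000 reads. In IP libraries the summed level of 8 astrocyte markers was 8420 to 11700 FPKM, against 337 to 604 FPKM in input libraries. Summed neuronal markers at day 1 were 133 to 173 FPKM in IP libraries and 2010 to 2450 FPKM in input libraries, so astrocyte and neuronal markers matched the labelled cell type. Some markers of other cells were nevertheless higher in IP than in input of PBS libraries, where 92.3% of all genes differed between the fractions. These were 5 of 6 tested neutrophil and monocyte markers (S100a9 by 2.73 and S100a8 by 2.47, log2), 4 of 7 of meningeal fibroblasts (Col1a2 by 2.15), 2 of 6 of oligodendrocytes (Olig1 by 2.02 and Cnp by 1.44) and 1 of 8 of pericytes and smooth muscle (Pdgfrb by 3.23). No marker of microglia and macrophages (0 of 9), endothelium (0 of 8) or neurons (0 of 8) was higher in IP. Each day has a sequencing project of its own, and whole tissue another, so day and project cannot be told apart. In whole tissue, PBS replicate 3 stood apart from the other PBS libraries. The name in its file header differs from its title, and its title stands in the header of PBS replicate 4, so whole tissue results are given with and without this library.

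Upstream sequences are printed for the 3 genes whose windows held kB-type letters and for Cxcl14, which held interferon-type letters but did not pass the LPS test in any IP group. They are the 250 bases before each gene's RefSeq start, from RefSeq promoters on GRCm38.p6, the assembly of mm10, written 5′ to 3′ on the gene's own strand. For Cxcl1 and Cxcl2 the RefSeq start lies inside the GENCODE gene whose position is given with their values, so the last bases of these windows are part of that gene. Capitals mark matches, on either strand, to 3 patterns. They are GAAA, any 2 bases and GAAA (interferon-type, a core of the interferon-stimulated response element), GGG, any 3 bases and TTCC (kB-type), and TTCNNNGAA (a gamma-activated site). Cxcl10 is at chr5:92348890-92349139 on the minus strand, Cxcl1 at chr5:90890995-90891244 and Cxcl2 at chr5:90903649-90903898 on the plus strand, and Cxcl14 at chr13:56296552-56296801 on the minus strand.
Cxcl10: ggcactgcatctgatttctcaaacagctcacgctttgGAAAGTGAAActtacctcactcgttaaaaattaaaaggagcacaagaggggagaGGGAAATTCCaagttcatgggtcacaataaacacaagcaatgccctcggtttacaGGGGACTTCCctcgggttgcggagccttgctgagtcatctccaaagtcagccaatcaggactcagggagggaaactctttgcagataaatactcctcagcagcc
Cxcl1: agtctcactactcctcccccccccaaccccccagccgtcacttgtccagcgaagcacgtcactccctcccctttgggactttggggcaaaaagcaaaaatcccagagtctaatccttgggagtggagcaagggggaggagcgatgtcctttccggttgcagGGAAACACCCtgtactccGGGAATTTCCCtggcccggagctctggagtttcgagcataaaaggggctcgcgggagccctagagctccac
Cxcl2: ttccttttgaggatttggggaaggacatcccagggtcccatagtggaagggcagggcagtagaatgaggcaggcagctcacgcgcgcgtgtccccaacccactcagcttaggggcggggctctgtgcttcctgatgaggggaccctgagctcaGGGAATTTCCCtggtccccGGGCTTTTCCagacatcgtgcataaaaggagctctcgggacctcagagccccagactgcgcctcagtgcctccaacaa
Cxcl14: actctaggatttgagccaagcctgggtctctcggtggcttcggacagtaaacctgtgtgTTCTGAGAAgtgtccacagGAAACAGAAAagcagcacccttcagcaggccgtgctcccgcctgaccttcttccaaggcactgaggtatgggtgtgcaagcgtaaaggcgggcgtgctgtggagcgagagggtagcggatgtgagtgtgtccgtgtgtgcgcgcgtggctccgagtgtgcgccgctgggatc
Cxcl10 held 1 interferon-type match, GAAAGTGAAA, 213 bases before the start. It also held kB-type matches GGGAAATTCC at 159 bases and GGGGACTTCC at 104 bases before the start. Cxcl1 and Cxcl2 shared the kB-type letters GGGAATTTCC, at 71 bases before the start in Cxcl1 and at 97 bases in Cxcl2, and in both genes a match on the other strand overlaps them by all but 1 base. Cxcl1 held a further kB-type match, GGAAACACCC, on the other strand at 89 bases, and Cxcl2 held GGGCTTTTCC at 78 bases. Cxcl14 held GAAACAGAAA 172 bases before the start and TTCTGAGAA, of the gamma-activated pattern, at 191 bases. RefSeq windows of 300 bases, reaching 50 bases past the start, were matched for 8 of the 10 genes, all but Cxcl5 and Cxcl16. Those of Cxcl9, Cxcl12, Cxcl13 and Cx3cl1 held none of the 3 letter patterns. Of 32817 RefSeq promoter windows of this length, 3.43% held the interferon-type pattern, 5.56% the kB-type pattern and 8.29% the gamma-activated pattern. A match is a description of letters and shows neither binding nor use of a site.

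Cxcl10 (ENSMUSG00000034855) lies on chromosome 5 at 92346638 to 92348889 on the minus strand in GENCODE vM21 on mm10. It was the member with the largest fitted change in each IP comparison of LPS with PBS at days 1 and 2. In LPS PFC IP at day 1 its levels were 13.4, 10.8, 52.4 and 13.7 FPKM, against 0.249, 0.936, 0.428 and 0 FPKM in PBS PFC IP. Every LPS library lay above every PBS library, and LPS replicate 3 stood well above the other 3. The fitted change was 5.75 ± 0.69 (log2, SE), with a limma adjusted p of 9.38e-05. In LPS VCX IP at day 1 the levels were 39.3, 10.5, 14.1 and 9.35 FPKM, against 0.0597, 0.392, 0.264 and 0.169 FPKM in PBS VCX IP. The groups again did not overlap, and Cxcl10 rose by 5.82 ± 0.69 on the log2 scale (limma adjusted p = 8.2e-05). These changes are on the log2(FPKM + 0.1) scale, which understates the change of low genes.

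At day 1, 3 of the 7 members tested in PFC IP were called, meaning a Benjamini-Hochberg adjusted p under 0.05 over all genes; these were Cxcl10, Cxcl1 and Cxcl5, and all 3 rose. The same test called 20.7% of all 13163 genes. In VCX IP 2 of 7 members were called, Cxcl10 and Cxcl1, where 21.8% of all genes were called. The median change of the tested members was 0.72 in PFC IP and 0.44 in VCX IP on the log2 scale, while the median of all genes tested was -0.012 in VCX IP and closer to 0 in PFC IP. Cxcl10, Cxcl1 and Cxcl16 would not have passed the filter on low values in PBS libraries alone. Counts and medians over tested members can thus be raised by the filter itself and are not a fair comparison with all genes. The LPS effect in PFC minus that in VCX was called for 0 of 7 members by limma, and for 0% of all genes (428 at an unadjusted p under 0.05, 1 of them a member, and 0 genes by limma-voom). For Cxcl10 this difference was -0.07 ± 0.97 on the log2 scale.

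In the input, where all cell types contribute, Cxcl10 was 8.12, 2.88, 4.97 and 3.81 FPKM in LPS PFC at day 1, against 0, 0.0684, 0.155 and 0.0949 FPKM in PBS PFC. In VCX input the levels were 2.02, 2.45, 8.08 and 1.67 FPKM with LPS and 0.0189, 0.149, 0 and 0.0731 FPKM with PBS. Neither area had an LPS library as low as a PBS library. Cxcl10 rose by 4.56 ± 0.42 in PFC input (limma adjusted p = 3.32e-06) and by 4.05 ± 0.42 in VCX input (limma adjusted p = 9.29e-06), both log2. The LPS effect in IP minus that in input, averaged over the areas, was 1.48 ± 0.59 on the log2 scale and was not called (limma adjusted p = 0.0893), but it was called with 1 added before log2 (2.15, limma adjusted p = 0.000303). Over all days, PBS libraries averaged 0.0834 FPKM of Cxcl10 in input, under the 0.1 added, and 0.296 FPKM in IP. An added constant thus shrinks the input change more than the IP change, and a larger constant can widen the gap. Neither value settles whether the fold rise differed between the fractions. In bulk samples, a change in the number of cells of a type and a change in RNA per cell cannot be told apart.

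At day 1, PFC input had 6 of 6 tested members called, of which 3 rose (Cxcl10, Cxcl1 and Cxcl16) and 3 fell (Cxcl12, Cxcl14 and Cx3cl1), where the background was 16.8% of 14676 genes. In VCX input 5 of 6 were called, without Cxcl14, where the background was 17.9%. Here too Cxcl10, Cxcl1 and Cxcl16 would not have passed the filter on PBS libraries alone. The difference between the areas was called by limma for 0 of 6 members and for 0% of all genes (1753 at an unadjusted p under 0.05, no member among them, and 1 gene by limma-voom).

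Markers of other cells moved with LPS beside the members. Of the neutrophil and monocyte markers listed, all but Ly6g were tested in IP at days 1 and 2, and all 8 tested rose in both areas. The background was 20.7% of genes in PFC IP and 21.8% in VCX IP at day 1, and 7.84% in PFC IP and 7.30% in VCX IP at day 2. Mmp8 and Ly6c2 did not pass the filter in the fit on PBS libraries, so this count can be raised by the filter. The sum of this list was 156 to 232 FPKM in LPS PFC IP at day 1 and 12.4 to 45.8 FPKM in PBS PFC IP, and in VCX IP it was 133 to 202 FPKM with LPS and 9.05 to 21.9 FPKM with PBS. In PFC input at day 1 it was 12.6 to 26.4 FPKM with LPS and 2.03 to 5.92 FPKM with PBS. At day 2 it was 56.2 to 143 FPKM in LPS PFC IP and 6.19 to 22.3 FPKM in PBS PFC IP. Microglia and macrophage markers rose in 5 of 8 tested in PFC IP at day 1, where the background was 20.7% (70.0 to 75.0 FPKM in sum with LPS, 49.2 to 54.9 FPKM with PBS). In PFC input, with a background of 16.8%, 7 of 9 rose and 2 fell (265 to 299 FPKM with LPS, 170 to 177 FPKM with PBS). No marker of T and NK cells, which carry CXCR3, passed the filter, and their sum was at most 0.106 FPKM in LPS IP libraries at day 1 and 0.128 FPKM in PBS IP libraries. The part of these cells in the members' changes was not tested.

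**Figure D1:**
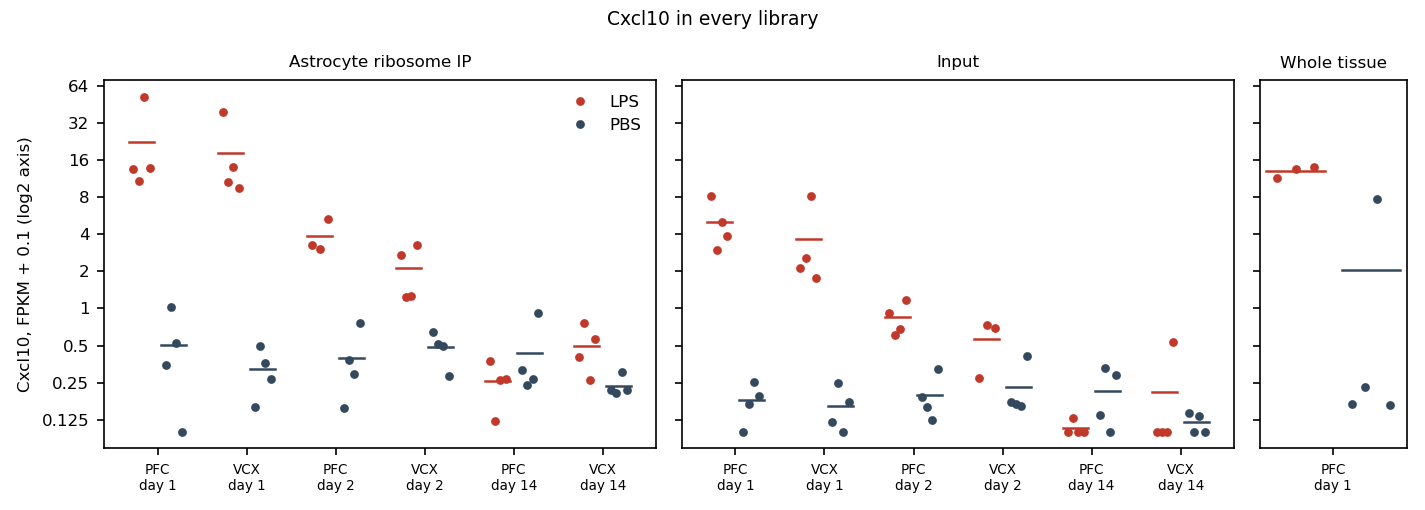
Cxcl10 level in every library, as FPKM + 0.1 on a log2 axis, by area and day, with IP, input and whole tissue in panels and LPS (red) left of PBS (dark blue). Each point is 1 library and each line a group mean; LPS IP libraries at day 1 lie between 9.35 and 52.4 FPKM, above all PBS IP libraries of that day, and the groups overlap at day 14.

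At day 2 Cxcl10 was lower than at day 1 in the LPS libraries but still above PBS in IP. In PFC IP it was 3.17, 2.93 and 5.23 FPKM with LPS, against 0.0543, 0.278, 0.192 and 0.659 FPKM with PBS. The groups did not overlap, and the rise was 3.61 ± 0.55 on the log2 scale (limma adjusted p = 0.00138). In VCX IP it was 2.64, 1.13, 1.17 and 3.15 FPKM with LPS and 0.55, 0.417, 0.396 and 0.183 FPKM with PBS. The groups did not overlap here either, and the rise was 2.1 ± 0.51 (log2, limma adjusted p = 0.0263). This call was lost on leaving out any 1 of PBS replicates 2, 3 and 4 or LPS replicates 1 and 4 of VCX IP, where the change was 1.8 to 2.16 and the limma adjusted p 0.056 to 0.0893.

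In the input at day 2, Cxcl10 was 0.818, 0.511, 0.576 and 1.08 FPKM in LPS PFC and 0.0917, 0.0583, 0.0236 and 0.225 FPKM in PBS PFC. It rose by 1.95 ± 0.38 there on the log2 scale (limma adjusted p = 0.00726), with no overlap. In VCX input it was 0.17, 0.64 and 0.591 FPKM with LPS and 0.074, 0.0689, 0.0612 and 0.312 FPKM with PBS. These groups overlapped, and the change of 1.16 ± 0.41 was not called (limma adjusted p = 0.267). The LPS effect on Cxcl10 at day 1 exceeded that at day 2 by 2.89 ± 0.66 in IP (limma adjusted p = 0.00346) and by 2.73 ± 0.43 in input (limma adjusted p = 0.000171), both log2 and averaged over the areas. Limma-voom did not call the IP difference (3.16, adjusted p = 0.107).

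At day 2, limma called 2 of 5 tested members in PFC IP (Cxcl10 and Cxcl5), where 7.84% of 13452 genes were called, and 1 of 5 in VCX IP (Cxcl10), where 7.30% were. In PFC input 2 of 5 were called (Cxcl10 and Cxcl16), where the background was 3.71%, and in VCX input 1 of 5 (Cxcl16), where it was 2.01%. Cxcl10 in both fractions and Cxcl16 in input would again not have passed the filter on PBS libraries alone. The differences between areas were called for 0 of 5 members by limma in each fraction. The background was 0% of genes in IP (521 at an unadjusted p under 0.05, 1 of them a member, and 0 by limma-voom) and 0.00682% in input (338 at an unadjusted p under 0.05, 1 of them a member, and 0 by limma-voom).

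Day 1 minus day 2 was called in 2 of 7 members in IP (Cxcl1 and Cxcl10), where the background was 18.7% of genes. In input it was called in 4 of 7 (Cxcl1, Cxcl10 and Cxcl16 higher at day 1, Cxcl12 lower), where the background was 7.84%. IP minus input was called in 3 of 7 members at day 1 (Cxcl12 higher, Cxcl1 and Cxcl16 lower), with a background of 15.7%. At day 2 it was called by limma in 0 of 6, with 4 at an unadjusted p under 0.05 and a background of 3.38%.

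At day 14 no member was called, of 4 tested in each comparison of LPS with PBS. The members tested were Cxcl12, Cxcl14 and Cx3cl1, with Cxcl5 in IP and Cxcl16 in input. The others, Cxcl10 among them, were under the filter. Cxcl10 in PFC IP was 0.276, 0.023, 0.161 and 0.166 FPKM with LPS, against 0.216, 0.139, 0.165 and 0.822 FPKM with PBS. In VCX IP it was 0.303, 0.657, 0.16 and 0.46 FPKM with LPS and 0.117, 0.107, 0.205 and 0.116 FPKM with PBS. The groups overlapped in both areas, and an exact permutation test within areas gave p = 0.777 (two-sided, 8 against 8 libraries). In VCX IP, however, the LPS levels of 0.303, 0.657 and 0.46 FPKM lay above every PBS level. In PFC IP the highest level, 0.822 FPKM, was with PBS. The test pools the areas, so it does not speak for VCX alone. Input libraries of day 14 held only 3 Cxcl10 reads with LPS and 11 with PBS in all (exact permutation p = 0.827, two-sided). Limma called 0% of genes in each of the 6 day 14 comparisons. For LPS against PBS, the counts of genes at an unadjusted p under 0.05 were 165 in PFC IP, 266 in VCX IP, 581 in PFC input and 735 in VCX input. For the differences between the areas they were 75 in IP and 160 in input, and for IP minus input, which also had 0% called, 557. None of these counts held a member, of 4 tested in each and 5 for IP minus input. Limma-voom called no gene in any of these 7 comparisons.

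Over the IP groups the mean Cxcl10 level with LPS was 22.6 ± 20 FPKM in PFC at day 1, 18.3 ± 14.1 FPKM in VCX at day 1, 3.78 ± 1.27 FPKM in PFC at day 2 and 2.02 ± 1.03 FPKM in VCX at day 2 (SD, n = 4, 4, 3 and 4). In each day 1 group 1 library carried the mean. Without replicate 3 the PFC mean was 12.6 ± 1.59 FPKM and without replicate 1 the VCX mean was 11.3 ± 2.47 FPKM (SD, n = 3 each). The highest pair did not differ beyond its spread. The 2 LPS groups of day 14 and the PBS groups had means of 0.136 to 0.403 FPKM, without a clear order. By the rule of highest correlation over the 24 group means of IP and input, the genes most like Cxcl10 were Ifit1 (Pearson r = 0.979), Usp18 (r = 0.974), Parp14 (r = 0.968), Isg15 (r = 0.962) and Mx2 (r = 0.96), out of 12178 genes ranked. These group means share libraries, so the values are descriptions only.

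Cxcl10 shares 133 exonic bases with Art3 on the opposite strand, and whether counting used strand is not given in the sources used here. Art3, a member of the ADP-ribosyltransferase family, was 2.95 to 4.34 FPKM in LPS IP libraries at day 1, against 1.34 to 1.99 FPKM in PBS IP libraries. In the input at day 1 it was 1.27 to 2.19 FPKM with LPS and 1.43 to 2.15 FPKM with PBS, which overlap. The part of shared reads in the values of either gene was not tested.

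Cxcl9 (ENSMUSG00000029417, chromosome 5, 92321347 to 92328079, minus strand), whose protein binds the same receptor as CXCL10, stayed under the filter on low values of 0.5 FPKM in every fit, so its reads are given. In IP at day 1 it had 35 reads in 7 of 8 LPS libraries, against 1 read in 8 PBS libraries (exact permutation test within areas, p = 0.00408). At day 2 the IP held 82 reads with LPS, present in 7 of 7 libraries, against 3 reads in 3 of 8 PBS libraries (exact permutation p = 0.000408, the smallest this design gives). Scaled to depth that is a ratio of 31.9, with an exact interval of 10.5 to 158 that covers counting error only. By level, Cxcl9 in VCX IP at day 2 was 0.0786 to 0.181 FPKM with LPS and 0 to 0.00771 FPKM with PBS, which do not overlap. In the input at day 2, 25 reads with LPS stood against 2 with PBS (exact permutation p = 0.00122), and at day 1, 16 with LPS against 1 with PBS (exact permutation p = 0.0102). LPS libraries thus had more Cxcl9 reads at both days, at levels far under those of Cxcl10. At day 14, 8 reads with LPS and 4 with PBS were left in IP (exact permutation p = 0.5).

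These and the other exact tests reported for members under the filter are 29 in all, 12 of them with a two-sided p under 0.05. They were added after the data had been seen, and no adjustment over them is given.

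Cxcl1 (ENSMUSG00000029380, chromosome 5, 90891241 to 90893115, plus strand) is a ligand of CXCR2 on neutrophils. In PFC IP at day 1 it was 0.558, 0.314, 1.32 and 0.379 FPKM with LPS, against 0.0577, 0.0775, 0.0496 and 0.12 FPKM with PBS. In VCX IP it was 0.654, 0.81, 0.26 and 0.307 FPKM with LPS and 0.0923, 0, 0 and 0 FPKM with PBS. All LPS libraries exceeded all PBS libraries in both areas. Cxcl1 rose by 2.07 ± 0.43 in PFC IP (limma adjusted p = 0.00225) and by 2.53 ± 0.43 in VCX IP (limma adjusted p = 0.000409), both log2.

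Cxcl1 levels with LPS were higher in the input than in the IP at day 1. They were 1.12, 2.41, 2.09 and 1.26 FPKM in LPS PFC input, against 0.0903, 0, 0.0299 and 0.022 FPKM in PBS PFC input. In VCX input they were 2.08, 1.41, 2.38 and 2.79 FPKM with LPS and 0.0219, 0, 0 and 0 FPKM with PBS. In VCX these are 347 reads with LPS and 1 with PBS, a ratio at equal depth of 338 with an exact counting interval of 60.2 to 13400. The fitted rise was 3.46 ± 0.27 in PFC input (limma adjusted p = 2.98e-07) and 4.06 ± 0.27 in VCX input (limma adjusted p = 6.99e-08), both log2. The LPS effect in IP minus that in input was -1.46 ± 0.35 (log2, limma adjusted p = 0.00406), a smaller rise in the astrocyte ribosome fraction.

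At day 2 Cxcl1 was below the filter in IP and input. PFC input held 0.458, 0.0312, 0.55 and 0.298 FPKM with LPS and 0.0266, 0.0338, 0.0546 and 0.058 FPKM with PBS, and 1 LPS library lay among the PBS libraries. VCX input held 0.0328, 0.556 and 0.249 FPKM with LPS and 0.0286, 0, 0 and 0 FPKM with PBS, where 0.0328 and 0.0286 FPKM are 1 read each. Over both areas the input had 66 reads with LPS and 7 with PBS (exact permutation p = 0.00245), and the IP 21 with LPS against 14 with PBS (exact permutation p = 0.124). The LPS effect at day 1 exceeded that at day 2 by 1.93 ± 0.43 in IP (limma adjusted p = 0.00217) and by 2.44 ± 0.37 in input (limma adjusted p = 8.88e-05), both log2.

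Cxcl5 (ENSMUSG00000029371, chromosome 5, 90759360 to 90761624, plus strand), a further CXCR2 ligand, set the areas apart already in PBS. In PBS IP it averaged 0.946 ± 0.376 FPKM in PFC and 0.145 ± 0.0494 FPKM in VCX (SD, n = 12 each). PFC exceeded VCX by 2.15 ± 0.16 on the log2 scale (limma adjusted p = 7.16e-14). In PBS input the difference was 0.33 ± 0.16 and was not called (limma adjusted p = 0.142). Levels there averaged 0.119 FPKM in PFC and 0.0693 FPKM in VCX, near the 0.1 added before log2, which shrinks the fitted difference.

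Markers of other cells also differed between the areas in PBS IP, where 17.9% of all genes did. Of 6 tested neutrophil and monocyte markers, 5 were higher in PFC, by 1.57 for S100a9, 1.42 for Retnlg, 1.35 for S100a8, 1.13 for Chil3 and 0.57 for Ccr2 (log2). The sum of this list was 12.4 to 45.8 FPKM in PFC and 9.05 to 21.9 FPKM in VCX at day 1, 6.19 to 22.3 FPKM in PFC and 2.06 to 7.14 FPKM in VCX at day 2, and 8.44 to 18.2 FPKM in PFC and 2.54 to 6.66 FPKM in VCX at day 14. Of 8 pericyte and smooth muscle markers, 3 were higher in PFC (Rgs5 by 1.02) and 1 lower, and of 7 meningeal fibroblast markers 1 was higher (Col1a2 by 1.34) and 4 were lower. Endothelial markers gave 0 calls of 8 tested. The part of these cells in the Cxcl5 difference was not tested.

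In PFC IP at day 1 Cxcl5 was 2.21, 1.38, 5.53 and 1.51 FPKM with LPS, against 0.683, 1.12, 0.569 and 0.716 FPKM with PBS. The groups did not overlap, LPS replicate 3 was again the highest, and the rise was 1.52 ± 0.32 (log2, limma adjusted p = 0.00296).

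In VCX IP at day 1 Cxcl5 was 0.392, 0.155, 0.248 and 0.255 FPKM with LPS and 0.132, 0.198, 0.152 and 0.183 FPKM with PBS. The groups overlapped, and the change of 0.44 ± 0.32 was not called (limma adjusted p = 0.363). The difference between the areas was 1.08 ± 0.46 and was not called (log2, limma adjusted p = 1). At day 2 PFC IP held 1.91, 2.55 and 1.45 FPKM with LPS, all above 0.625, 0.713, 0.693 and 0.807 FPKM with PBS. The rise was 1.41 ± 0.34 on the log2 scale (limma adjusted p = 0.0198), but it was not called without PBS replicate 1, PBS replicate 2, LPS replicate 1 or LPS replicate 2 of PFC IP (1.19 to 1.48, limma adjusted p 0.0543 to 0.0791). In VCX IP at day 2 the levels were 0.686, 0.191, 0.301 and 0.15 FPKM with LPS and 0.189, 0.0791, 0.0876 and 0.0947 FPKM with PBS, which overlap (0.96 ± 0.31, limma adjusted p = 0.0841). Most of these PBS levels lay near the 0.1 added before log2, which shrinks the fitted change. This change was called without PBS replicate 1 (1.18, limma adjusted p = 0.0472) and without LPS replicate 4 of VCX IP (1.16, limma adjusted p = 0.0469). At day 14 the PFC IP levels were 1.15, 1.94, 1.01 and 1.57 FPKM with LPS and 1.37, 1.46, 0.888 and 1.7 FPKM with PBS, which overlap throughout. Input reads of Cxcl5 were few, with 67 reads with LPS against 34 with PBS at day 2 (exact permutation p = 0.0098) and 130 with LPS against 57 with PBS at day 1 (exact permutation p = 0.251).

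Cxcl2 (ENSMUSG00000058427, chromosome 5, 90903871 to 90905938, plus strand), also a CXCR2 ligand, was close to absent. IP libraries at day 1 held 18 reads in 7 of 8 LPS libraries and 0 reads in 8 PBS libraries (exact permutation p = 0.00204). Set against a floor of 3 reads over the PBS group, it was at least 4.98-fold higher with LPS. The input at day 1 held 38 reads with LPS, in 6 of 8 libraries, and 3 reads with PBS (exact permutation p = 0.00816). At day 2 only 2 reads were left in LPS IP and 1 in LPS input, against 0 in PBS of either fraction. Cxcl1 and Cxcl2 are neighbouring paralogs, and how the authors' counting treated reads that match both is not given in the sources used here.

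**Figure D2:**
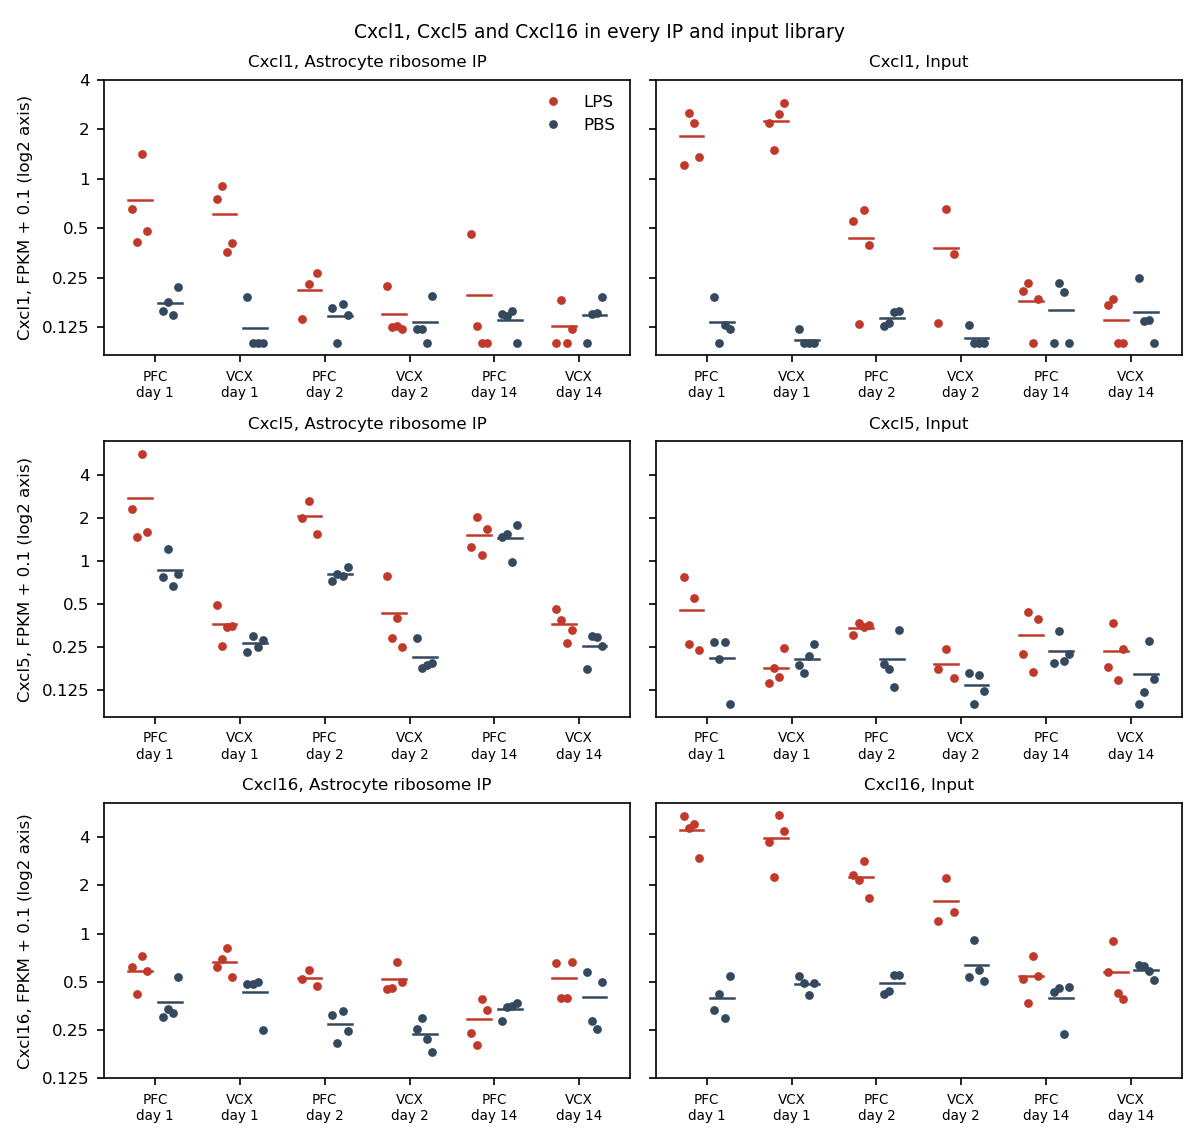
Cxcl1, Cxcl5 and Cxcl16 levels in every IP (left) and input (right) library, as FPKM + 0.1 on a log2 axis, by area and day, with LPS (red) left of PBS (dark blue). Each point is 1 library and each line a group mean; Cxcl16 at day 1 reaches 2.14 to 5.4 FPKM in LPS input but 0.321 to 0.717 FPKM in LPS IP, and Cxcl5 is higher in PFC IP than in VCX IP.

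Cxcl16 (ENSMUSG00000018920, chromosome 11, 70453983 to 70459984, minus strand) encodes a transmembrane ligand of CXCR6 that also binds oxidised lipoprotein. It was called in the input and not in the IP. In PFC input at day 1 it was 5.34, 4.46, 4.69 and 2.84 FPKM with LPS, against 0.233, 0.318, 0.197 and 0.443 FPKM with PBS. In VCX input it was 3.62, 2.14, 5.4 and 4.25 FPKM with LPS and 0.442, 0.392, 0.314 and 0.394 FPKM with PBS. The groups lay far apart in both areas, with rises of 3.36 ± 0.24 in PFC (limma adjusted p = 1.54e-07) and 2.85 ± 0.24 in VCX (limma adjusted p = 7.85e-07), both log2.

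In the IP at day 1 Cxcl16 was 0.521, 0.321, 0.626 and 0.481 FPKM in LPS PFC and 0.201, 0.24, 0.218 and 0.438 FPKM in PBS PFC, which overlap. In VCX IP it was 0.519, 0.593, 0.717 and 0.434 FPKM with LPS and 0.384, 0.386, 0.396 and 0.152 FPKM with PBS, which do not overlap. Neither change was called, at 0.72 ± 0.26 in PFC (limma adjusted p = 0.0595) and 0.69 ± 0.26 in VCX (limma adjusted p = 0.0654). Limma-voom on the recovered reads called both, at 0.87 in each area (adjusted p = 0.0492 in PFC and 0.0359 in VCX). Without PBS replicate 4 the PFC change was called (0.87, limma adjusted p = 0.0412), and without PBS replicate 3 the VCX change (0.86, limma adjusted p = 0.0388). The LPS effect in IP minus that in input was -2.4 ± 0.27 (log2, limma adjusted p = 1.97e-07).

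At day 2 Cxcl16 in PFC input was 2.23, 2.07, 2.72 and 1.56 FPKM with LPS and 0.319, 0.34, 0.455 and 0.45 FPKM with PBS, a rise of 2.07 ± 0.22 (log2, limma adjusted p = 5.35e-05). In VCX input it was 1.09, 2.13 and 1.27 FPKM with LPS and 0.432, 0.805, 0.495 and 0.404 FPKM with PBS, a rise of 1.28 ± 0.24 (limma adjusted p = 0.0089). Neither pair overlapped. The VCX call was lost without LPS replicate 2 (0.98, limma adjusted p = 0.125) and with a fit on these 2 groups alone (1.29, limma adjusted p = 0.125). In the IP at day 2, below the filter, Cxcl16 had 306 reads in 7 LPS libraries and 133 in 8 PBS libraries (exact permutation p = 0.000408, the smallest this design gives). VCX IP levels were 0.352, 0.358, 0.568 and 0.398 FPKM with LPS and 0.153, 0.196, 0.119 and 0.0824 FPKM with PBS, without overlap. The input effect at day 1 exceeded that at day 2 by 1.43 ± 0.24 (log2, limma adjusted p = 0.000395). The genes most like Cxcl16 over the group means were Pycard (r = 0.948), Tlr2 (r = 0.911) and Icam1 (r = 0.908).

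Cxcl16 shares 552 exonic bases with Zmynd15 on the opposite strand. Zmynd15 was 0.0421 to 0.388 FPKM in LPS input libraries at day 1 and 0.0204 to 0.134 FPKM in PBS input libraries, far under Cxcl16 with LPS. The part of shared reads was not tested.

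Cx3cl1 (ENSMUSG00000031778, chromosome 8, 94772009 to 94782427, plus strand), the neuronal chemokine, was the most abundant member in the input. In PBS libraries it averaged 16 ± 5.13 FPKM in IP and 240 ± 27.1 FPKM in input (SD, n = 24 each). In PFC input at day 1 it was 215, 214, 208 and 208 FPKM with LPS, against 232, 253, 228 and 223 FPKM with PBS. In VCX input it was 226, 210, 210 and 215 FPKM with LPS and 230, 231, 254 and 272 FPKM with PBS. The groups did not overlap in either area, although the gaps were small. Cx3cl1 fell by 0.19 ± 0.055 in PFC (log2, limma adjusted p = 0.0241) and by 0.24 ± 0.055 in VCX (limma adjusted p = 0.00658). The PFC call was lost without rescaling between libraries (-0.15, limma adjusted p = 0.102) and without PBS replicate 2 or LPS replicates 3 or 4 (-0.19 to -0.16, limma adjusted p 0.0593 to 0.0807). Summed neuronal markers in PFC input at day 1 were 2010 to 2170 FPKM with LPS and 2170 to 2450 FPKM with PBS, and their part in the result was not tested. In the IP no comparison of LPS with PBS called Cx3cl1, and at day 1 it was 10.4 to 13.6 FPKM in LPS PFC and 12.9 to 13.7 FPKM in PBS PFC. The genes most like Cx3cl1 over the group means were Camk2b, Dmtn and Rusc1 (r = 0.999 each), with IP and input setting most of that pattern.

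Cxcl12 (ENSMUSG00000061353, chromosome 6, 117168535 to 117181367, plus strand) encodes the ligand of CXCR4 and of the scavenger receptor ACKR3. It fell in the input at day 1. In PFC it was 3.79, 3.87, 4.14 and 3.2 FPKM with LPS, against 5.79, 5.32, 4.55 and 4.25 FPKM with PBS. In VCX it was 3.36, 3.09, 2.69 and 2.98 FPKM with LPS and 4.59, 3.53, 4.62 and 4.73 FPKM with PBS. No LPS library reached the lowest PBS library of its area. Cxcl12 fell by 0.44 ± 0.11 in PFC (log2, limma adjusted p = 0.0121) and by 0.55 ± 0.11 in VCX (limma adjusted p = 0.00245).

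At day 2 Cxcl12 in PFC input averaged 5.1 ± 0.441 FPKM with LPS and 4.9 ± 0.153 FPKM with PBS (SD, n = 4 each), which overlap, and the effect at day 1 lay 0.44 ± 0.098 below that at day 2 in input (difference -0.44, log2, limma adjusted p = 0.00442). In the IP it was 0.529 to 0.869 FPKM in LPS PFC at day 1 and 0.57 to 0.79 FPKM in PBS PFC, and the change of 0.15 ± 0.15 was not called (limma adjusted p = 0.548). In VCX IP at day 2 the change of 0.45 ± 0.16 was not called by limma (adjusted p = 0.102). Limma-voom did call it (0.5, adjusted p = 0.0436). At day 1 the LPS effect in IP minus that in input was 0.55 ± 0.13 (log2, limma adjusted p = 0.00371). Of 8 endothelial markers, 4 rose in PFC input at day 1 (Ly6c1, Cldn5, Pecam1 and Esam, by 0.55 to 1.27, log2) and the other 4 were not called, where the background was 16.8%. Their sum was 61.6 to 69.9 FPKM in LPS PFC input and 37.6 to 40.9 FPKM in PBS PFC input. Of 8 pericyte and smooth muscle markers, Kcnj8 rose by 0.51, Vtn fell by 0.26 and 6 were not called. Their sum was 38.9 to 48.2 FPKM with LPS and 50.7 to 55.8 FPKM with PBS there, and the part of either cell type in the result was not tested. Genes most like Cxcl12 over the group means were Adcy5 (r = 0.985), Tmtc1 (r = 0.985) and Olfm2 (r = 0.984), with IP and input setting most of that pattern.

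Cxcl14 (ENSMUSG00000021508, chromosome 13, 56288643 to 56296551, minus strand), a strongly conserved chemokine, was by far the most abundant member in the astrocyte ribosome fraction. It averaged 231 ± 20.9 FPKM in IP and 31.5 ± 3.36 FPKM in input of PBS libraries (SD, n = 24 each). LPS IP libraries averaged 230 ± 18.8 FPKM (SD, n = 23). In PFC IP at day 1 Cxcl14 was 226 to 259 FPKM with LPS and 233 to 251 FPKM with PBS, a difference of 0.03 ± 0.073 (log2, limma adjusted p = 0.847). In PFC input at day 1 it was 26, 25, 25.1 and 28.1 FPKM with LPS, against 30.5, 28.6, 28.6 and 29.8 FPKM with PBS. These groups lay just apart, and Cxcl14 fell by 0.22 ± 0.061 (log2, limma adjusted p = 0.0204). The call was lost without rescaling (-0.17, limma adjusted p = 0.0676) and without PBS replicates 1 or 4 or LPS replicates 2 or 3 (-0.21 to -0.19, limma adjusted p 0.0518 to 0.0746). In VCX input the levels were 31.4, 27.3, 29.7 and 33.2 FPKM with LPS and 31.2, 30.7, 33.2 and 33.4 FPKM with PBS, which overlap (-0.13 ± 0.061, limma adjusted p = 0.178). Csrp1, Gprc5b and Pdpn were the genes most like Cxcl14 over the group means (r = 0.999 each), with IP and input setting most of that pattern.

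In PBS libraries 5 members could be tested between the fractions, and all 5 differed, where 92.3% of all genes did. IP exceeded input for Cxcl14 by 3.55 ± 0.026 (limma adjusted p = 2.88e-51), for Cxcl5 by 1.82 ± 0.11 (limma adjusted p = 1.66e-18) and for Cxcl10 by 1.37 ± 0.22 (limma adjusted p = 2.33e-07), all log2. IP was lower than input for Cx3cl1, at -3.27 ± 0.081 (limma adjusted p = 4.69e-32), and for Cxcl12, at -1.98 ± 0.062 (limma adjusted p = 4.2e-29), both log2. Without rescaling between libraries the median of all genes lay at -0.67 instead of -0.024 on the log2 scale, and the directions of all 5 stayed the same. Beside Cxcl5 and Cxcl10, neutrophil and monocyte markers were higher in IP too (S100a9 by 2.73, S100a8 by 2.47, Chil3 by 1.69, Retnlg by 1.61 and Ccr2 by 1.09, with Csf3r at -1.13). Meningeal fibroblast markers were mixed. Col1a2 (2.15), Aldh1a2 (1.87), Slc6a13 (1.59) and Col1a1 (0.38) were higher in IP, Pdgfra (-1.46) and Lum (-0.54) were lower, and Dcn was not called (-0.05). The part of these cells in the results for Cxcl5 and Cxcl10 was not tested. Between the areas in PBS IP, 1 of 5 members was called, Cxcl5, where 17.9% of genes were. In PBS input 2 of 5 were called, where 23% of genes were. These were Cxcl12, higher in PFC than in VCX by 0.24 ± 0.087 (log2, limma adjusted p = 0.0387), and Cxcl14, with PFC minus VCX at -0.1 ± 0.037 (log2, limma adjusted p = 0.0488). The Cxcl12 call was lost without rescaling (0.23, limma adjusted p = 0.0554). The Cxcl14 call was lost with 1 added before log2, without the filter, without the sex term and by limma-voom (-0.1 in each, adjusted p 0.0533 to 0.0776).

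**Figure D3:**
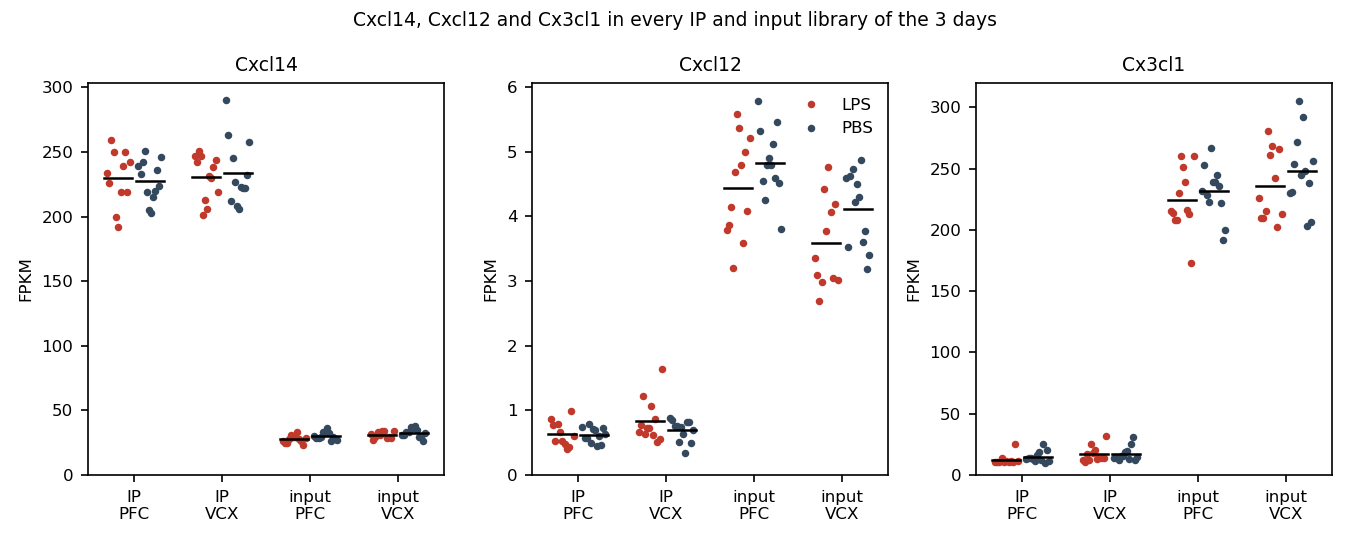
Cxcl14, Cxcl12 and Cx3cl1 levels in FPKM in every IP and input library of the 3 days, by area, on linear axes, with LPS (red) left of PBS (dark blue). Each point is 1 library and each line the mean over the days; Cxcl14 averages 231 FPKM in PBS IP, while Cx3cl1 averages 240 FPKM and Cxcl12 4.47 FPKM in PBS input.

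Cxcl13 (ENSMUSG00000023078, chromosome 5, 95956951 to 95961068, plus strand), whose protein attracts B cells through CXCR5, was nearly unread in PBS libraries. The input at day 1 held 167 reads in 8 of 8 LPS libraries and 2 reads in 2 of 8 PBS libraries (exact permutation p = 0.000408, the smallest this design gives). The ratio at equal depth was 76.7, with an exact counting interval of 20.9 to 638. IP at day 1 held 33 reads in 7 of 8 LPS libraries and 0 reads in 8 PBS libraries (exact permutation p = 0.00204), at least 9.14-fold against a floor of 3 reads over the PBS group. At day 2 the input still held 27 reads with LPS and 3 with PBS (exact permutation p = 0.0396), and at day 14, 4 with LPS and 2 with PBS (exact permutation p = 1).

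**Figure D4:**
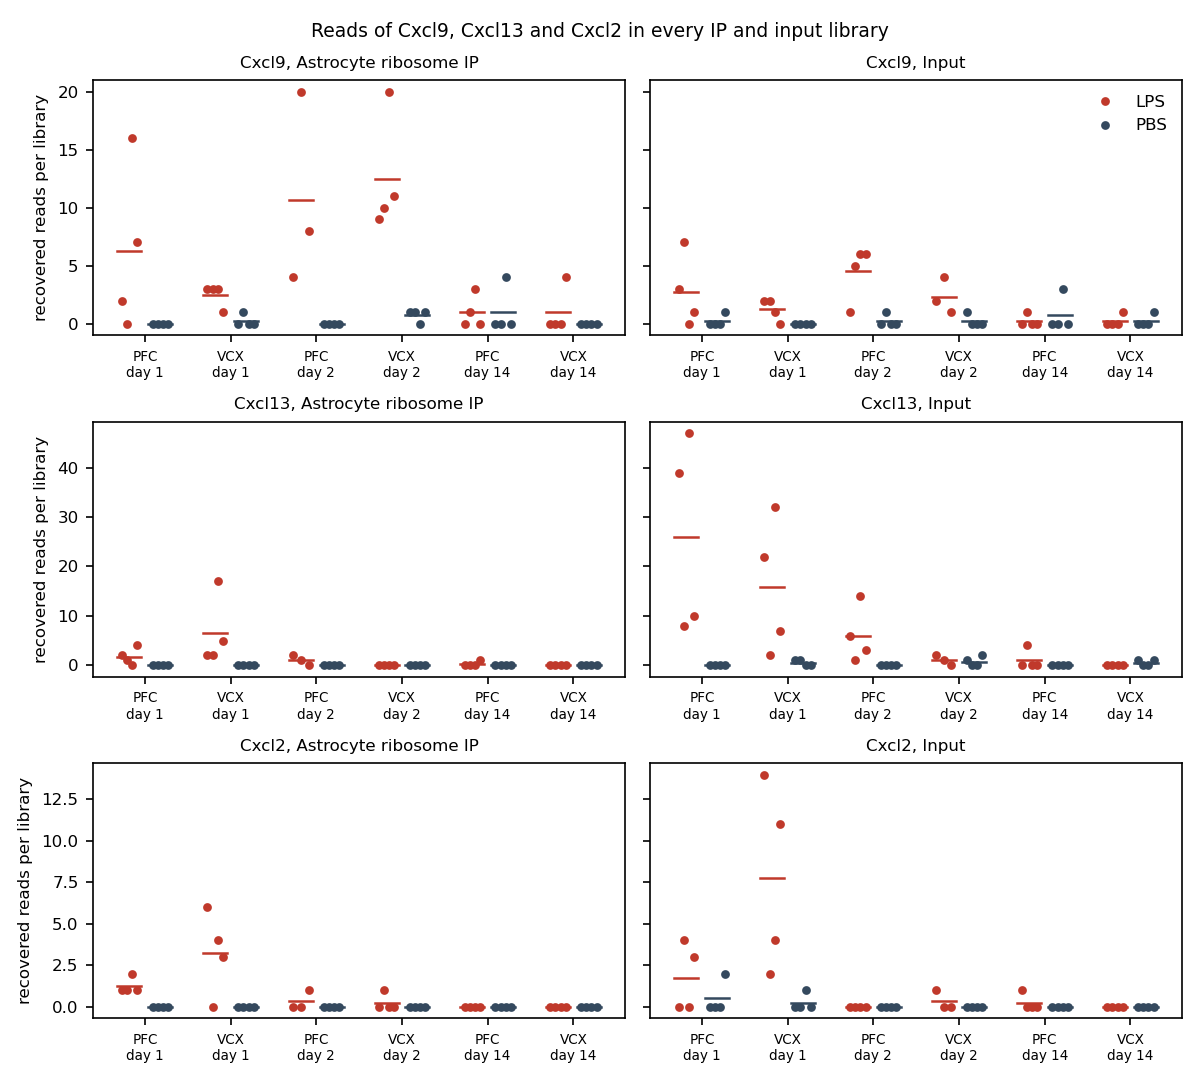
Reads of Cxcl9, Cxcl13 and Cxcl2 recovered from each IP (left) and input (right) library, by area and day, with LPS (red) left of PBS (dark blue). Each point is 1 library and each line a group mean; the day 1 input holds 167 Cxcl13 reads over the LPS libraries and 2 over the PBS libraries, and the day 2 IP holds 82 Cxcl9 reads over the LPS libraries and 3 over the PBS libraries.

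In whole PFC tissue at day 1, Cxcl10 was 11.4, 13.5 and 14.0 FPKM with LPS, against 0.0675, 0.129, 7.62 and 0.0647 FPKM with PBS. The third PBS library lay close under the LPS libraries, and the others near 0. The same library held 4.79 FPKM of Cxcl16 and 0.589 FPKM of Cxcl1. Cxcl16 was 5.42, 6.08 and 6.42 FPKM with LPS and 0.678, 0.695, 4.79 and 0.63 FPKM with PBS. Cxcl1 was 1.59, 1.31 and 1.21 FPKM with LPS and 0.0522, 0.0747, 0.589 and 0.075 FPKM with PBS. With all 7 libraries limma called 0 of 7 members, 6 of them with an unadjusted p under 0.05, and 0.00676% of 14788 genes, while limma-voom called 5 members.

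Without PBS replicate 3, a choice made after seeing the data, 5 of 7 members were called, where 10.7% of genes were. Cxcl10, Cxcl1 and Cxcl13 would not have passed the filter on the remaining PBS libraries alone, so this count is not a fair comparison with all genes. Cxcl10 was higher with LPS by 5.92 ± 0.14 (limma adjusted p = 2.51e-09), Cxcl1 by 2.91 ± 0.18 (limma adjusted p = 1.45e-06) and Cxcl16 by 2.89 ± 0.1 (limma adjusted p = 2.87e-08), all log2. Cxcl13 had 210 reads in the 3 LPS libraries and 0 in the remaining 3 PBS libraries, at least 59.1-fold higher against a floor of 3 reads over the group. Cxcl12 fell by 0.54 ± 0.08 (log2, limma adjusted p = 0.00125), with levels of 3.86, 4.02 and 3.45 FPKM in LPS tissue and 5.18, 5.41 and 5.33 FPKM in the remaining PBS tissue. Leaving out any other single library called no gene. Summed markers of microglia and macrophages were 375 to 409 FPKM in LPS tissue and, over all 4 libraries, 204 to 374 FPKM in PBS tissue, and those of neutrophils and monocytes 16.7 to 22 FPKM in LPS tissue and 1.74 to 8.91 FPKM in PBS tissue.

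**Figure D5:**
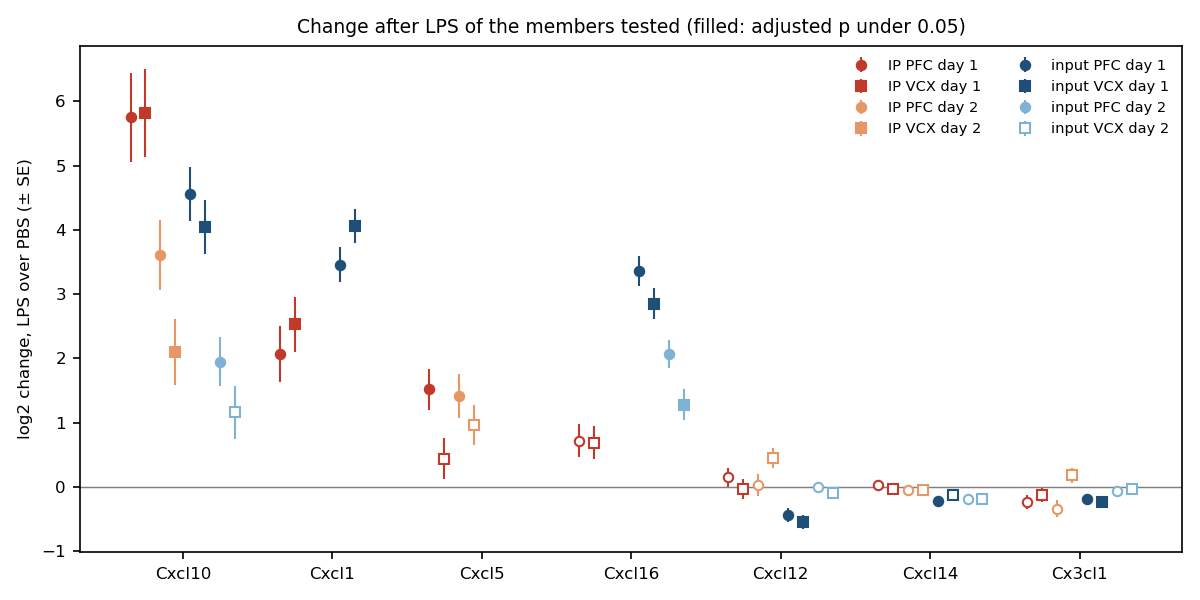
Fitted log2 change of LPS over PBS with its standard error for the members tested in IP and input at days 1 and 2, by area, on the log2(FPKM + 0.1) scale; filled symbols have an adjusted p under 0.05. Cxcl10 stands highest in IP, at 5.75 in PFC and 5.82 in VCX at day 1, and Cxcl12 lies below 0 in the day 1 input.

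Of 9 receptor genes for these chemokines, 5 could be tested in IP at day 1, and in both areas 3 rose and 1 fell, where the background was 20.7% of genes in PFC and 21.8% in VCX. One of those that rose, Cxcr2, did not pass the filter in the fit on PBS libraries, so this count can be raised by the filter. Cxcr2, the receptor of CXCL1, CXCL2 and CXCL5 on neutrophils, rose by 2.09 ± 0.31 in PFC (limma adjusted p = 0.000145) and by 2.75 ± 0.31 in VCX (limma adjusted p = 1.01e-05). Ackr1, which binds inflammatory chemokines on vessels and red cells, rose by 0.67 ± 0.22 in PFC and 1.1 ± 0.22 in VCX, and Cx3cr1, the CX3CL1 receptor of microglia, by 0.59 ± 0.15 in PFC and 0.6 ± 0.15 in VCX. Ackr3, which takes up CXCL12, fell by 0.56 ± 0.18 in PFC IP (limma adjusted p = 0.0371) and by 0.66 ± 0.18 in VCX IP (limma adjusted p = 0.0149). In the input at day 1, 2 of 4 rose in both areas, Ackr1 and Cx3cr1, with a background of 16.8% in PFC and 17.9% in VCX. At day 2 Cx3cr1 rose by 1.18 ± 0.2 in PFC IP and by 1.47 ± 0.18 in VCX IP (limma adjusted p = 0.00162 in PFC and 9.89e-05 in VCX), the only receptor called of 4 tested there, where 7.84% of genes were called in PFC and 7.30% in VCX. The median change over the tested receptors in IP at day 1 was 0.59 in PFC and 0.6 in VCX.

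Of 17 CC and XC ligand genes, 7 were tested in IP at day 1 and 4 rose in each area, against a background of 20.7% in PFC and 21.8% in VCX. Ccl12, a ligand of CCR2 on monocytes, rose by 3.95 ± 0.35 in PFC and 4.23 ± 0.35 in VCX, and Ccl2, a further CCR2 ligand, by 3.64 ± 0.36 in PFC and 3.24 ± 0.36 in VCX (log2, limma adjusted p at most 7.18e-06 for either gene). In the input 12 were tested, of which 7 rose and 1 fell in each area, with a background of 16.8% in PFC and 17.9% in VCX. Ccl2 in both fractions, and Ccl3, Ccl4, Ccl5 and Ccl7 in input, did not pass the filter in the fit on PBS libraries. The counts of these ligands can thus be raised by the filter. Ccl12 rose by 6.58 ± 0.6 in PFC input and Ccl2 by 4.79 ± 0.26, while Ccl27a fell by 0.35 ± 0.059 (limma adjusted p = 0.000695). The LPS effect of IP minus input at day 1 was -2.23 ± 0.49 for Ccl12 (limma adjusted p = 0.00215) and -1.21 ± 0.32 for Ccl2 (limma adjusted p = 0.00844), both log2 and below 0 like that of Cxcl1. It was called below 0 for Ccl3 (-1.79), Ccl4 (-1.77) and Ccl7 (-1.67) as well, but these genes were under the filter in the IP fit of day 1. At such low levels the 0.1 added before log2 holds the IP change near 0 and can make part of the difference. The CC ligands were not uniform, as the LPS effect of IP minus input at day 1 was called above 0 for Ccl6 (2.12 ± 0.27) and Ccl9 (1.5 ± 0.21). Of the 6 other CXC ligands listed, Pf4, a platelet chemokine, was called in PFC IP at day 2 only among the LPS comparisons (1.5 ± 0.42, limma adjusted p = 0.0416).

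Of 16 interferon and NF-kB factors, 14 were tested in IP at day 1, and 7 rose in each area, where 20.7% of all genes were called in PFC and 21.8% in VCX. Irf7, an interferon regulatory factor, rose by 3.24 ± 0.46 in PFC IP and 3.34 ± 0.46 in VCX IP, and Irf9, part of the complex that binds interferon response elements, by 2.12 ± 0.2 in PFC and 1.83 ± 0.2 in VCX (all log2). Irf1, a further interferon regulatory factor, rose by 1.32 ± 0.22 in PFC and 1.17 ± 0.22 in VCX. In the input at day 1, 10 of 16 rose in PFC, where 16.8% of genes were called, and 12 of 16 in VCX, where 17.9% were. Nfkb2, an NF-kB subunit, rose by 1.8 ± 0.15 in PFC input. At day 2, 8 of 16 rose in PFC IP (background 7.84%) and 6 of 16 in VCX IP (7.30%), and in input 4 in PFC (3.71%) and 3 in VCX (2.01%). The IP minus input effect at day 1 was 0.96 ± 0.18 for Irf9 (limma adjusted p = 0.000329) and -0.89 ± 0.17 for Nfkb2 (limma adjusted p = 0.000359), both log2. Of 4 genes for processing of CX3CL1 and CXCL16 and capture of chemokines, Rhbdf2, which brings the sheddase ADAM17 to the cell surface, rose by 1.03 ± 0.22 in PFC input and 1.3 ± 0.22 in VCX input at day 1. Adam17 itself rose by 0.31 ± 0.087 in PFC (limma adjusted p = 0.0231) and 0.35 ± 0.087 in VCX (limma adjusted p = 0.00923). Dpp4, a protease that trims CXCL10 and other chemokines, rose in VCX IP at day 1 (0.63 ± 0.2, limma adjusted p = 0.034). It was not called in PFC IP (-0.21 ± 0.2, limma adjusted p = 0.509) or in input of PFC (-0.14) and VCX (0.13), and the difference between the areas in IP was not called (-0.84 ± 0.28, limma adjusted p = 1).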

How the data were processed

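RNA was sequenced from polyA TruSeq libraries of 101 samples in 26 groups. The authors deposited 1 file of FPKM per library. Per the submitters' processing notes, STAR, HTSeq and mm10 were used, with no versions given. FPKM of a gene moved in steps of 1 read, which gave back the reads (21330 of 21330 genes with reads, tolerance 0.05). Of 24060 entries per file, 4 with dates in place of symbols were left out.

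FPKM were divided by TMM factors (trims of 30% of M and 5% of A), and 0.1 was added before log2. The filter kept genes reaching 0.5 FPKM in a number of libraries equal to the smallest group of the fit. Genes low in PBS could thus be tested through their LPS libraries alone, which favours genes that rose. Limma 3.58.1 (R 4.3.3) was fitted to all groups of a day and fraction together, or to all groups that a difference needs, with a mean trend, robust empirical Bayes moderation and sex as covariate (none in whole tissue, all female). Called means a Benjamini-Hochberg adjusted p under 0.05, adjusted over all genes of each of 27 comparisons. The fit of IP at day 1 was run on simulated data, with changes planted only in genes whose PBS mean lay above the filter. That run does not speak for members low in PBS or for groups with an outlying library. Members under the filter were compared by two-sided exact permutation tests of mean FPKM within areas, added after seeing the data. Ratios of reads carry exact intervals from binomial counts at library depth. Intervals and floors cover counting error only.

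The members and lists were chosen with earlier results of these data known. All 10 members are named whatever their result; of each list, up to 4 called genes are named by size of change (1 such gene is not reported here), with like genes by highest Pearson r over 24 group means (5 for Cxcl10, 3 for others, at least 1 on the log2 FPKM scale in their highest group, predicted, mitochondrial and date-like genes left out). Alternatives were RLE factors, no rescaling, 1 added before log2, no filter, no sex term, limma-voom on the recovered reads, the 2 groups alone, and leaving out each library.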

Additional observations from a re-analysis of the deposited data

Results flagged for a closer look

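Dixon's criterion set 16 single libraries apart out of 121 member and group pairs tested, at a nominal rate of about 1 in 20. The count cannot be read against that rate, because pairs share libraries and a group with reads in a single library always passes. The PBS whole tissue library of replicate 3 accounted for 5 of the 16. It held 7.62 FPKM of Cxcl10 where the other PBS libraries had 0.0647 to 0.129 FPKM, and 4.79 FPKM of Cxcl16 where they had 0.63 to 0.695 FPKM. It also held 0.589 FPKM of Cxcl1 (others 0.0522 to 0.075), 0.192 FPKM of Cxcl13 (others 0) and 4.01 FPKM of Cxcl12 (others 5.18 to 5.41).

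In LPS PFC IP at day 1, replicate 3 had 52.4 FPKM of Cxcl10 where the others had 10.8 to 13.7 FPKM, and replicate 4 had 13.6 FPKM of Cx3cl1 (others 10.4 to 10.6). In PBS VCX IP at day 1, replicate 1 had 0.0923 FPKM of Cxcl1 (others 0) and replicate 4 had 0.152 FPKM of Cxcl16 (others 0.384 to 0.396). In PBS VCX input at day 1, replicate 1 had 0.0219 FPKM of Cxcl1 (others 0), which is 1 read, and replicate 2 had 3.53 FPKM of Cxcl12 (others 4.59 to 4.73). In PBS VCX input at day 2, replicate 4 had 0.312 FPKM of Cxcl10 (others 0.0612 to 0.074).

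At day 14, when summed neuronal markers were 131 to 320 FPKM in LPS PFC IP and 137 to 365 FPKM in LPS VCX IP, Cx3cl1 was 25 FPKM in replicate 3 of LPS PFC IP (others 10.7 to 11.6) and 31.8 FPKM in replicate 4 of LPS VCX IP (others 13.5 to 15.1). The part of neuronal RNA in these values was not tested. Cxcl14 was 34.4 FPKM in replicate 4 of LPS VCX input (others 28.6 to 29.1), and Cxcl16 was 0.136 FPKM in replicate 3 of PBS PFC input (others 0.333 to 0.367).

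LPS effects also differed by the test of the difference itself, on the log2 scale with limma. At day 1 the effect in IP minus that in input was -1.46 for Cxcl1, -2.4 for Cxcl16 and 0.55 for Cxcl12. The effect at day 1 minus that at day 2 was 2.89 for Cxcl10 and 1.93 for Cxcl1 in IP, and 2.73 for Cxcl10, 2.44 for Cxcl1, 1.43 for Cxcl16 and -0.44 for Cxcl12 in input.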

How the results depend on the processing

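No paired analysis was possible because the number in a label is its library's own, with no number shared between groups of a day; replicate numbers used here only name libraries. Over 147 changes and differences of single members, 881 of 927 values under alternatives other than leaving out a library kept their direction and their side of the threshold. So did 466 of 535 values with 1 library left out, over the 69 changes of LPS against PBS. No called change reversed its direction. Counts of members called moved as follows, and the cause was not tested. Without the filter, more genes being tested, they were 4 in VCX IP at day 1 (2 with it), 4 in PFC IP at day 2 (2 with it), 3 in VCX IP at day 2 (1 with it) and 1 for IP minus input at day 2 (0 with it). With the 2 groups alone they were 1 in VCX IP at day 1 and 0 in VCX input at day 2 (1 in the shared fit). Limma-voom called 2 in VCX IP at day 2, 5 in whole tissue (0 by limma on FPKM) and 1 for day 1 minus day 2 in IP (2 by limma), Cxcl10 losing its call. Adding 1 before log2 gave 1 in whole tissue and 3 for IP minus input at day 2. Without rescaling 1 was called in whole tissue. Between PFC and VCX in PBS input, where 2 were called, 1 was called without rescaling, with 1 added, without the sex term and by limma-voom. Without rescaling this lost Cxcl12 and in the other 3 Cxcl14. Leaving out 1 library gave 1 to 2 in PFC IP at day 2, 0 to 2 in VCX IP at day 2, 0 to 1 in VCX input at day 2 and 0 to 5 in whole tissue.

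Over all genes, 13840 were called in IP against input in PBS, 6841 higher and 6999 lower, and without rescaling 4038 higher and 10110 lower. In day 1 PFC input 1195 were higher and 1268 lower with rescaling, and 1543 and 815 without. In VCX input these were 1145 and 1484 with, and 1443 and 1003 without. In PFC IP at day 2 they were 683 and 371 with, and 644 and 537 without. For IP minus input they were 1400 and 969 at day 1 with, and 972 and 1468 without, and 353 and 153 at day 2 with, and 247 and 330 without. Fits on 2 groups alone called 1829 in VCX IP at day 1 (2865 in the shared fit), 695 in PFC IP (1054) and 449 in VCX IP (982) at day 2, and 122 in VCX input (294). In whole tissue 1 gene was called by limma and 787 by limma-voom. Depth limits the members with few reads, Cxcl2, Cxcl9 and Cxcl13.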
